A study of Mus musculus with 12 samples.

Results

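The transcriptional response of mouse splenic dendritic cells (DCs) to bacteria was compared between 2 genotypes, gene by gene. For every gene the quantity of interest was the interaction, the change with bacteria in knockout cells minus the change with bacteria in wild-type cells, on the log2 scale. A positive interaction means that the knockout response lay above the wild-type response, and a negative one that it lay below. All 12 libraries of the series entered the comparison, and 14293 of the 54532 genes in the deposited count table were tested.

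The wild-type (WT) cells came from WT C57BL6 mice. The knockout cells came from SLC29A3-/- C57BL6 mice and are called KO here, after their labels. Each genotype was left untreated or received attenuated Salmonella typhimurium (STmDfla) at a multiplicity of infection of 10, with 30 min of contact, a wash and a chase of 3 h. The 4 groups were WT untreated, WT treated, KO untreated and KO treated, with 3 libraries each, numbered 1, 2 and 3. All groups share the isolation, in which B, T and NK cells were removed with antibodies (against CD45R, CD90.2 and CD49b) before cells carrying CD11c were selected with magnetic beads. The labels give the result as a mixture of cDC1 and cDC2, and they state neither an age nor whether separate animals were used for the numbered libraries. P-values therefore measure the spread between these libraries alone, which may in part be technical. Sex-linked RNA, given below, was male in number 1 of every group and female in numbers 2 and 3, so number 1 came from other animals than these. Whether numbers 2 and 3 came from separate animals is not stated.

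SLC29A3 encodes ENT3, a nucleoside transporter of the endolysosome. Phagocytosed bacteria reach the phagolysosome of DCs, where Toll-like receptors start NF-kB and interferon signalling that switches on cytokines, chemokines and costimulatory genes. Macrophages of the splenic red pulp, a neighbouring cell type, clear old red cells and recycle their iron through heme oxygenase and the exporter ferroportin.

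Slc29a3 itself (ENSMUSG00000020100, mm10 chr10:60712072-60752794, minus strand) was counted in every library, at 110.2, 99.2 and 104 CPM (the count scaled for library size with TMM factors) in untreated WT libraries 1, 2 and 3, and at 197, 233 and 207 CPM in the treated ones. In KO libraries it was at 94, 74 and 63.5 CPM untreated and 147, 191 and 124 CPM treated. The sources used here do not give the deleted part of the gene, so these counts do not check the genotype labels. Its response to bacteria was 1.02 log2 in WT and 0.99 log2 in KO cells, an interaction of -0.03 log2 with a 95% interval of -0.40 to 0.34.

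Markers of several cell types differed between the genotypes before any bacteria were added. The 15 macrophage markers summed to 620 to 1123 CPM in untreated WT and 1205 to 3548 CPM in untreated KO libraries, and after bacteria to 495 to 904 and 1160 to 3755 CPM. The 14 neutrophil markers summed to 14.5 to 28.3 CPM over all WT libraries and 128 to 1456 CPM over all KO libraries, with KO number 2 highest in both treatments. The 10 erythroid markers found summed to 32.7 to 40.1 CPM in WT and 2094 to 5299 CPM in KO libraries, and the 15 monocyte markers to 816 to 1378 CPM and 1341 to 2578 CPM. The 6 general markers of conventional DCs summed to 1709 to 1916 CPM in untreated WT and 1447 to 1645 CPM in untreated KO libraries. After bacteria they summed to 2228 to 2299 CPM in WT and 1658 to 1942 CPM in KO libraries. KO libraries thus lay below WT libraries in both treatments. No marker of these 5 lists was at 0 throughout a group. KO number 3 was highest and KO number 1 lowest in the macrophage, monocyte and erythroid sums of both treatments. In bulk RNA, fewer cells of a type and less RNA per cell cannot be told apart. Number 1 of every group had 133 to 224 CPM of the Y-linked gene Ddx3y and at most 0.0599 CPM of Xist, and numbers 2 and 3 had 0 CPM of Ddx3y and 605 to 1055 CPM of Xist. Totals of gene counts ran from 15693172 to 24074596 per library.

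**Figure D1:**
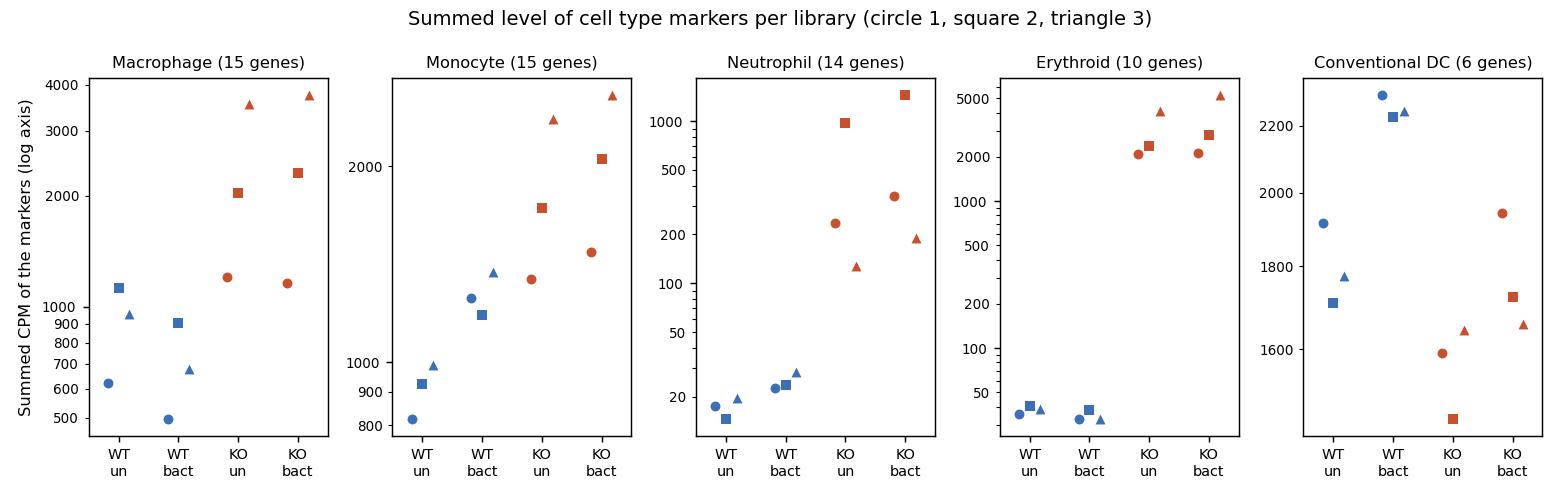
Summed CPM (log axis, which does not start at 0 and differs between panels) of the markers of 5 cell types in each library, by genotype and treatment (un, untreated; bact, with bacteria). KO libraries lie above all WT libraries in the macrophage, neutrophil and erythroid panels. The 3 KO numbers keep their order between treatments in the macrophage, monocyte, neutrophil and erythroid panels.

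The KO response differed from the WT response in 41 genes, of which 21 had a higher and 20 a lower response (edgeR quasi-likelihood test, adjusted p under 0.05 over all tested genes). That is 0.287% of tested genes, 0.147% higher and 0.140% lower. All 41 encode proteins, and they lie on 17 chromosomes. By contrast, 4561 genes (31.9%) responded to bacteria in WT cells and 4986 (34.9%) in KO cells. The called interactions described here ran from -2.93 to -0.82 log2 among the negative ones and from 0.85 to 1.99 log2 among the positive ones. The median interaction of all tested genes was -0.02 log2.

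These calls come from a model in which an untreated and a treated library of the same genotype and number form a pair, and a treated minus untreated value within such a pair is called a paired response. Without the pairing 0 genes passed (edgeR, lowest adjusted p = 0.383 among the 41), and 608 of all tested genes (4.25%) had an unadjusted p under 0.05, against 1319 (9.23%) with the pairing. DESeq2 with the same pairing called 126 genes, the 41 among them, and limma-voom 41 genes, 34 of them shared. DESeq2 gave no adjusted p to 3880 of the 14293 genes, so its adjustment ran over fewer genes than that of edgeR. The 3 paired responses of KO did not overlap the 3 of WT in any of the 41 genes, and in 14.7% of all tested genes. The 41 were called from the same libraries, so their separation is no further support. When each of the 6 pairs was left out in turn, the number of genes called ran from 15 (without KO number 3) to 228 (without KO number 1). Of the 41 genes, 10 were called in all 6 of these fits and 15 in at least 4 of them. Among the 10 were Spic, Htra1, Abcg1, Minpp1, 6430548M08Rik, Egr1, Slc40a1, March1 and Gm6377.

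**Figure D2:**
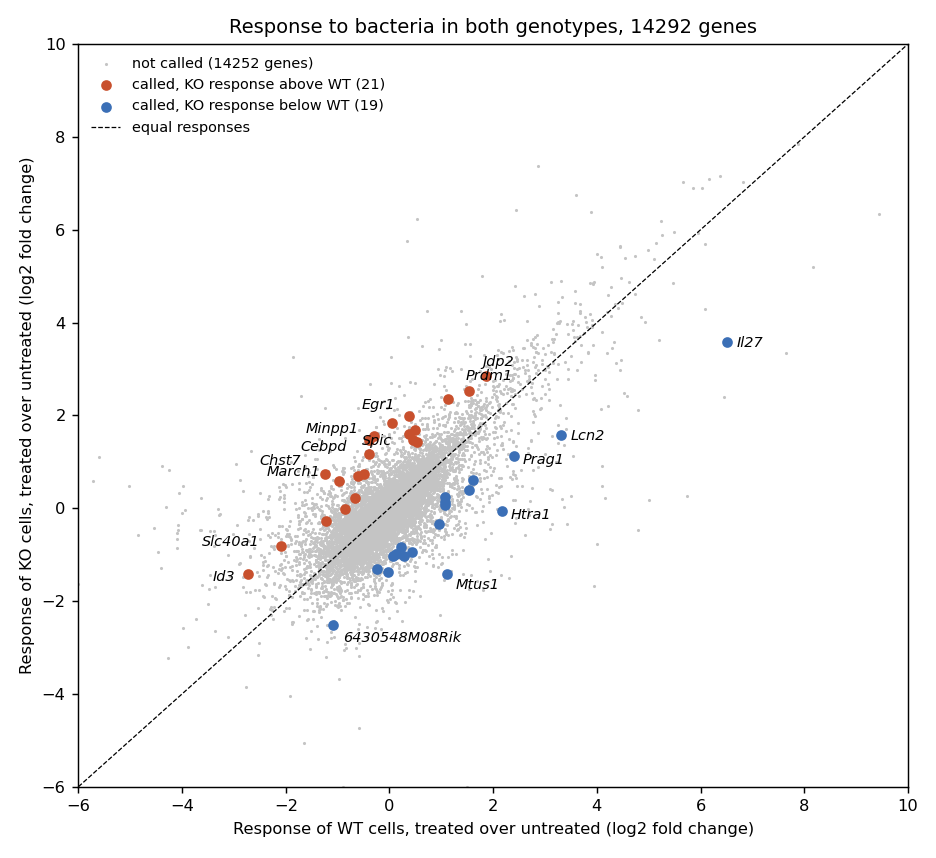
Log2 fold change with bacteria in WT cells (horizontal) against KO cells (vertical) for 14292 tested genes, with 21 genes of higher KO response in red and 19 of lower KO response in blue. The dashed line marks equal responses, and 3 genes beyond the axes are drawn at the edge. Spic lies above the line, at -0.39 in WT and 1.17 in KO, and Htra1 below it, at 2.16 and -0.07.

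The called genes are sorted here by what each genotype did, for 40 of the 41. Bacteria lowered 5 genes in WT and raised them in KO cells (Spic, March1, Chst7, Kctd12 and Jade3), and 6 of all tested genes moved in this opposite way. A further 5 genes rose in WT and did not pass in KO cells (Htra1, F11r, Adgre1, Acp5 and Vsir), and 3 fell in WT and did not pass in KO cells (Hmox1, Blvrb and Pparg). In 8 genes KO cells alone passed and fell (Abcg1, Ndst1, Rassf5, Cd300lf, Sik1, Tmem104, Tns1 and Mtus1), and in 4 they alone passed and rose (Minpp1, Egr1, Lrp4 and Cebpd). Both genotypes raised 12 genes, 7 of them more in KO (Prdm1, Procr, Jdp2, Tnip3, Ets2, Arid5a and Gm6377) and 5 less (Il27, Lcn2, Prag1, Igsf8 and Sema6d). Both lowered 3 genes, Slc40a1 and Id3 less in KO and 6430548M08Rik more. For comparison, the whole tested set held 570 genes (3.99%) that passed in WT alone with a rise, and 688 (4.81%) with a fall. KO cells alone passed with a fall in 1123 (7.86%) and with a rise in 560 (3.92%). Joint rises numbered 1803 (12.6%) and joint falls 1490 (10.4%).

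Untreated KO libraries 1, 2 and 3 had macrophage marker sums of 1205, 2032 and 3548 CPM, and treated ones of 1160, 2299 and 3755 CPM. The called genes had their levels in the same order of libraries in 31 of the 41 among untreated KO libraries and in 33 among treated ones, against 26.1% of all tested genes in each treatment. The called genes Spic, Slc40a1, Hmox1 and Adgre1 are part of the macrophage sums, so the match is partly of called genes with themselves. Hmox1 alone made up 424, 998 and 1751 CPM of the untreated sums and 379, 1119 and 1722 CPM of the treated ones. Abcg1, Htra1, F11r, March1, Cd300lf and Mtus1 were among the genes in that order, and Lcn2, Jdp2, Sema6d and Sik1 had it in neither treatment. The monocyte and erythroid marker sums of the KO libraries had the same order as the macrophage sums in both treatments. The part of macrophage, monocyte or erythroid RNA in the called interactions was not tested. The genes are grouped below by known function after their values were seen, so a direction shared within such a group is no result.

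**Figure D3:**
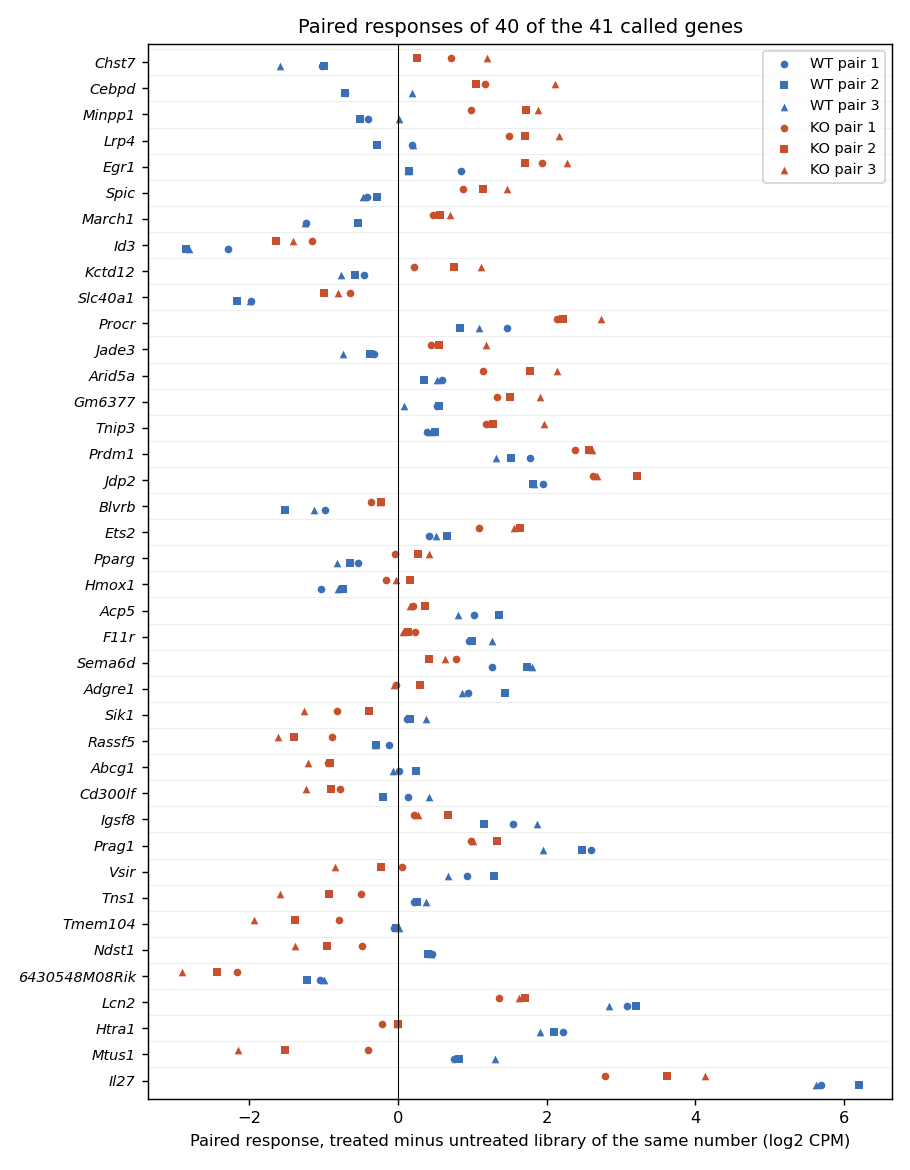
Paired response, treated minus untreated library of the same number in log2 CPM, of 40 of the 41 called genes, with WT pairs in blue and KO pairs in red and the number given by the symbol. Genes are ordered by interaction from the highest at the top. In every row the 3 red symbols lie to one side of the 3 blue ones.

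Of the 14 macrophage markers tested, 3 were called with a higher KO response (Spic, Slc40a1 and Hmox1) and 1 with a lower one (Adgre1), against 0.287% of all tested genes. Over the 14 the interaction was positive in 8 and negative in 6, with a median of 0.06 log2. An unadjusted p of the interaction under 0.05 (edgeR) was found in 3 above and 4 below, against 4.32% and 4.90% of all tested genes. Bacteria raised 5 of the 14 and lowered 3 in WT cells, and raised 3 and lowered 3 in KO cells. The shares of the whole tested set were 16.6% raised and 15.3% lowered in WT, and 16.6% and 18.3% in KO. Spic (ENSMUSG00000004359, mm10 chr10:88674772-88685015, minus strand) encodes the transcription factor that red pulp macrophages need for their development. In WT libraries 1, 2 and 3 it was at 93.7, 116 and 135 CPM untreated and 70.2, 94.6 and 98.1 CPM with bacteria, and every pair fell. In KO libraries it went from 98.1, 144 and 211 CPM to 181, 319.7 and 583 CPM, and every pair rose. The responses were -0.39 log2 in WT (edgeR adjusted p = 0.0137) and 1.17 log2 in KO (edgeR adjusted p = 1.27e-06), with an interaction of 1.56 log2, SE 0.15, edgeR adjusted p = 0.000259. Untreated levels overlapped between the genotypes, and treated KO levels all lay above treated WT levels. Leaving out any 1 pair kept the interaction between 1.45 and 1.72 log2.

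Slc40a1 (ENSMUSG00000025993, mm10 chr1:45908068-45926523, minus strand) encodes ferroportin, the iron exporter. It fell in WT cells from 11.2, 16.8 and 13.5 to 2.75, 3.66 and 3.32 CPM, a 4.24-fold drop. In KO cells it fell from 45.3, 78.1 and 168 to 28.9, 39 and 95.7 CPM, a 1.77-fold drop (interaction 1.26 log2, SE 0.17, edgeR adjusted p = 0.00521). The genotypes did not overlap in either treatment, with KO libraries higher. Hmox1 (ENSMUSG00000005413, mm10 chr8:75093621-75100589, plus strand) encodes heme oxygenase 1, which opens the heme ring and frees its iron. It went from 336, 798 and 699 to 164, 479 and 398 CPM in WT and from 424, 998 and 1751 to 379, 1119 and 1722 CPM in KO cells. All 3 WT pairs fell, and the KO response was -0.01 log2 (interaction 0.85 log2, SE 0.14, edgeR adjusted p = 0.0164). Blvrb, whose product reduces biliverdin and flavins downstream of heme breakdown, went from 30.6, 53.6 and 75.4 to 15.4, 18.7 and 34.3 CPM in WT and from 39.5, 78.6 and 87.1 to 30.7, 67.2 and 73.6 CPM in KO. Its KO response of -0.28 log2 did not pass (edgeR adjusted p = 0.0626), and its interaction was 0.94 log2, SE 0.16, edgeR adjusted p = 0.0176.

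Adgre1 and Acp5 had lower KO responses. Adgre1 encodes F4/80, a surface receptor used to mark red pulp macrophages. It rose in WT cells from 33, 14.3 and 21.1 to 63.4, 38.9 and 38.3 CPM, while KO libraries were at 108, 114 and 186 CPM untreated and 106, 141 and 179.9 CPM treated (interaction -0.999 log2, SE 0.17, edgeR adjusted p = 0.0177). Acp5, the gene of the lysosomal tartrate-resistant acid phosphatase, rose from 147, 145 and 185 to 299, 373 and 325 CPM in WT and went from 302, 599 and 832 to 349, 770.4 and 932 CPM in KO cells (interaction -0.82 log2, SE 0.15, edgeR adjusted p = 0.0308). For both genes the untreated KO libraries lay above all untreated WT libraries. Treated libraries of the genotypes overlapped for Acp5 and did not for Adgre1. The macrophage marker sums given above differ between the genotypes in the same libraries, and their part in these results was not tested.

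**Figure D4:**
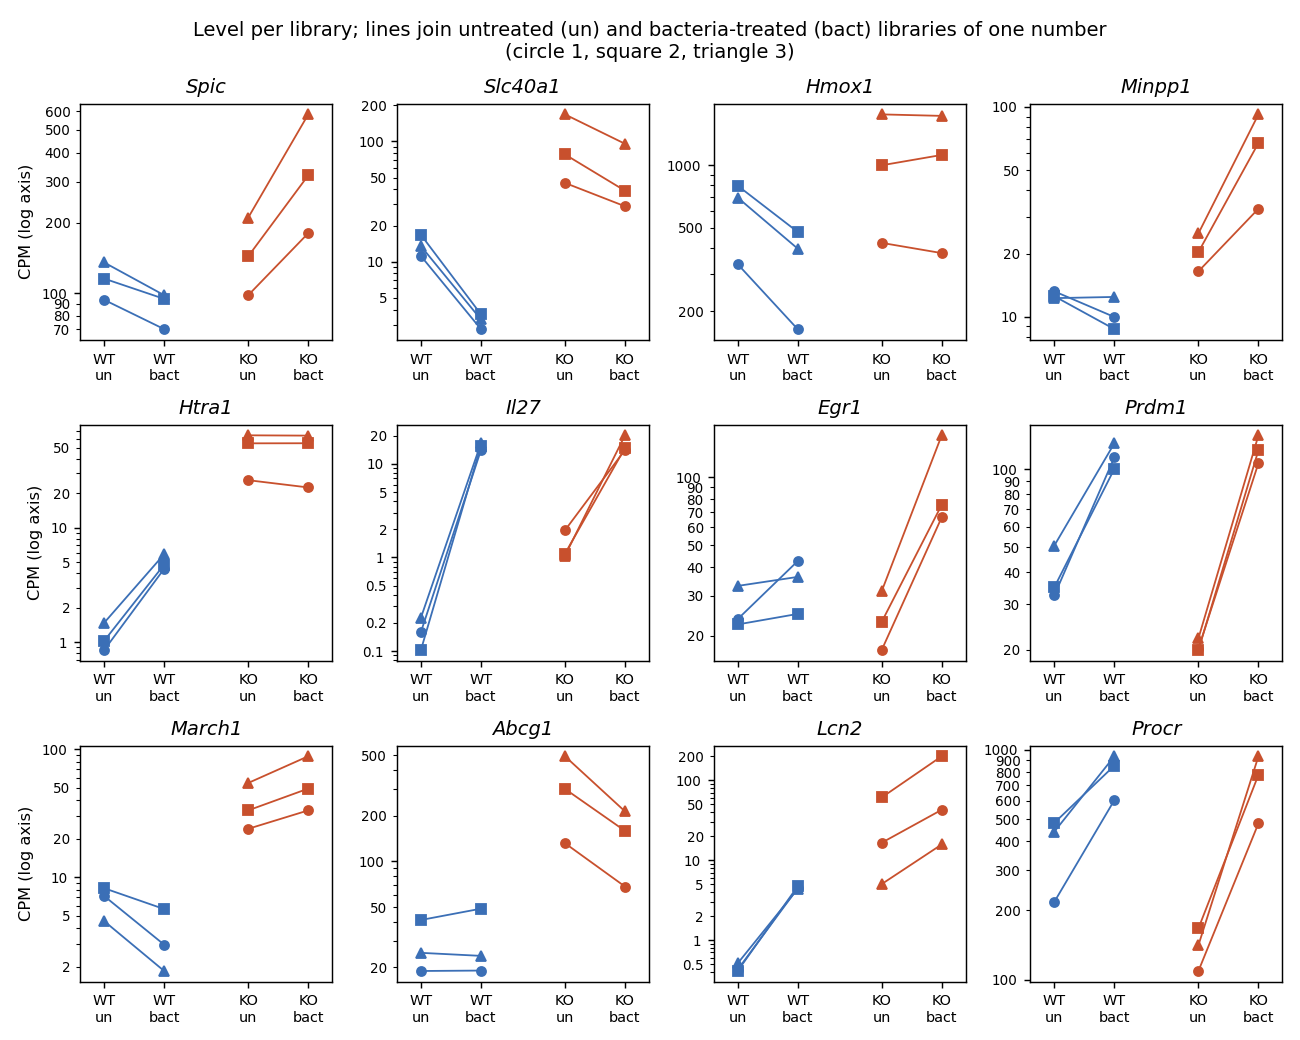
CPM (log axis, with a different range in each panel) of 12 called genes in every library, with lines joining the untreated (un) and bacteria-treated (bact) library of the same genotype and number. Spic falls in the 3 WT pairs and rises in the 3 KO pairs, Htra1 rises in the 3 WT pairs from a level far below KO, and Prdm1 starts lower in KO and reaches the WT level.

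Genes of extracellular proteolysis, coagulation and adhesion were called in both directions. Htra1 (ENSMUSG00000006205, mm10 chr7:130936111-130985660, plus strand), the gene of a secreted serine protease that acts on matrix proteins, rose in WT cells from 0.852, 1.03 and 1.47 to 4.38, 4.77 and 5.88 CPM. KO libraries were at 26.1, 54.8 and 64.4 CPM untreated and 22.5, 54.9 and 64 CPM treated, and the KO response did not pass (edgeR adjusted p = 0.685). Its interaction was -2.23 log2, SE 0.22, edgeR adjusted p = 0.000259.

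Procr (ENSMUSG00000027611, mm10 chr2:155751117-155755471, plus strand) encodes the endothelial protein C receptor, which speeds the activation of an anticoagulant protease and is also carried by DC subsets. It rose in both genotypes, from 218, 481 and 441 to 604, 855 and 938 CPM in WT and from 109, 167 and 141 to 479, 778 and 938 CPM in KO cells. Untreated KO libraries lay below all untreated WT libraries, and the treated libraries of the genotypes overlapped. The responses were 2.19-fold and 5.14-fold, with an interaction of 1.23 log2, SE 0.19, edgeR adjusted p = 0.0118. F11r, the gene of junctional adhesion molecule A, rose in WT cells from 21.9, 18.5 and 17.8 to 42.5, 37 and 42.8 CPM. In KO cells F11r was already higher untreated, at 58.4, 89.5 and 138 CPM, and was at 68.5, 98.2 and 144 CPM with bacteria (interaction -0.93 log2, SE 0.14, edgeR adjusted p = 0.0109).

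Lipid handling gave 2 calls of opposite sign. Abcg1 (ENSMUSG00000024030, mm10 chr17:31057698-31115777, plus strand) encodes a cholesterol exporter that the LXR receptors induce. In WT cells it was at 18.9, 41.1 and 25 CPM untreated and 19.1, 48.8 and 23.8 CPM with bacteria, a response that did not pass (0.07 log2, edgeR adjusted p = 0.651). In KO cells it fell in every pair, from 132, 300.1 and 493 to 68.2, 159 and 213 CPM, and stayed above WT throughout (interaction -1.10 log2, SE 0.14, edgeR adjusted p = 0.00381). Pparg, a nuclear receptor for fatty acid derivatives, fell in WT cells from 15.5, 23.3 and 18.1 to 10.7, 14.9 and 10.2 CPM. KO cells held 41, 65.9 and 91.8 CPM untreated and 39.7, 79.4 and 123 CPM treated, a response of 0.22 log2 that did not pass (interaction 0.89 log2, SE 0.16, edgeR adjusted p = 0.0312). Of the 20 tested genes of LXR and lipid handling these were the 2 calls, and the median interaction of that list was 0.09 log2, or 0.30 log2 without number 1 of both genotypes.

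Several regulators of transcription or of mRNA were called. Egr1 (ENSMUSG00000038418), an immediate early zinc finger factor, was at 23.6, 22.4 and 33.1 CPM in untreated and 42.6, 24.9 and 36.3 CPM in treated WT libraries. KO libraries began at a like level, 17.3, 23 and 31.4 CPM, and reached 66.4, 75.4 and 153 CPM. The KO rise was 3.96-fold (edgeR adjusted p = 1.91e-07), the WT response of 0.38 log2 did not pass (edgeR adjusted p = 0.064), and the interaction was 1.61 log2, SE 0.21, edgeR adjusted p = 0.00381. Cebpd, a C/EBP factor induced in acute phase responses, went from 5.75, 5.02 and 4.71 to 3.46, 3.02 and 5.40 CPM in WT and from 7.41, 13.9 and 16.5 to 16.8, 29 and 71.4 CPM in KO cells (interaction 1.86 log2, SE 0.33, edgeR adjusted p = 0.0312). Limma-voom did not call Cebpd (adjusted p = 0.0593). KO number 3 was the highest library for both genes.

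Prdm1 (ENSMUSG00000038151, mm10 chr10:44437177-44528501, minus strand) encodes Blimp-1, a repressor that limits DC activation and drives plasma cell fate in B cells. It rose from 32.5, 35 and 50.7 to 111, 101 and 126 CPM in WT and from 20.2, 19.95 and 22.1 to 106, 119 and 136 CPM in KO cells. All untreated KO libraries lay below all untreated WT libraries, and treated libraries overlapped (interaction 0.99 log2, SE 0.15, edgeR adjusted p = 0.0111). Jdp2, a repressor of the AP-1 family, started lower in KO as well, at 101, 73.2 and 81.8 against 197, 304 and 229 CPM in WT. With bacteria it reached 620.0, 683 and 523 CPM in KO and 761, 1077 and 813 CPM in WT cells (interaction 0.97 log2, SE 0.16, edgeR adjusted p = 0.0168). Ets2, an ETS factor downstream of Ras and MAP kinases, rose from 26.2, 22.5 and 25.2 to 35.2, 35.6 and 36.1 CPM in WT and from 45.8, 47.2 and 54 to 97.4, 147 and 160.2 CPM in KO cells, with no overlap in either treatment (interaction 0.90 log2, SE 0.16, edgeR adjusted p = 0.0298).

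Arid5a, an RNA-binding regulator that stabilises Il6 mRNA, went from 43.9, 46.7 and 42.5 to 66.3, 59.4 and 61.3 CPM in WT and from 36.7, 28.2 and 30.5 to 81.2, 97.2 and 135 CPM in KO cells (interaction 1.21 log2, SE 0.21, edgeR adjusted p = 0.0308). Untreated KO lay below WT and treated KO above WT in every library of Arid5a. Id3, an inhibitor of E proteins, fell 6.59-fold in WT, from 11.8, 12.8 and 14.4 to 2.33, 1.69 and 1.94 CPM, and 2.66-fold in KO, from 26.6, 59.7 and 75.2 to 11.9, 19 and 28.3 CPM (interaction 1.31 log2, SE 0.23, edgeR adjusted p = 0.0246), and limma-voom did not call it (adjusted p = 0.0852). Jade3, a scaffold of histone acetyltransferase complexes, fell by 0.49 log2 in WT and rose by 0.74 log2 in KO cells (interaction 1.23 log2, SE 0.22, edgeR adjusted p = 0.0272). Sik1, a salt-inducible kinase that acts on CREB coactivators, had a lower KO response. It went from 54.4, 49.2 and 55.6 to 59.3, 55.2 and 72 CPM in WT and from 73, 50.8 and 76.6 to 41.3, 38.6 and 31.7 CPM in KO cells (interaction -1.05 log2, SE 0.19, edgeR adjusted p = 0.0311).

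Among secreted and NF-kB related products, Il27 and Lcn2 rose less in KO and Tnip3 rose more. Il27 (ENSMUSG00000044701, mm10 chr7:126589010-126594941, minus strand) encodes the p28 subunit of interleukin 27, a DC cytokine that restrains effector T cells. It was near the detection limit in untreated WT libraries, at 0.160, 0.103 and 0.227 CPM from 9 counts in all, and at 1.95, 1.10 and 1.04 CPM from 78 counts in untreated KO libraries. Treated WT libraries were at 14, 15.6 and 16.6 CPM and treated KO libraries at 14.1, 14.8 and 20.2 CPM, and these overlapped. The fitted rises were 91.6-fold and 12.1-fold, an interaction of -2.93 log2, SE 0.51, edgeR adjusted p = 0.0246, and the first rests on the 9 counts. Limma-voom did not call Il27 (adjusted p = 0.141).

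Lcn2 encodes lipocalin 2, which withholds iron from bacteria by binding their siderophores, and which neutrophils store. It rose in WT from 0.426, 0.410 and 0.511 to 4.45, 4.71 and 4.36 CPM. In KO it rose from 16.6, 61.1 and 5.03 to 42.8, 201 and 15.8 CPM, and number 2 was highest in both treatments, as it was for the summed neutrophil markers. Lcn2 is itself one of those markers. The rises were 9.93-fold and 2.99-fold (interaction -1.73 log2, SE 0.27, edgeR adjusted p = 0.0118). Without KO number 2 the interaction of Lcn2 was -1.77 log2 and no longer passed (edgeR adjusted p = 0.0756). Limma-voom did not call it (adjusted p = 0.197). The part of neutrophil RNA in this result was not tested. Tnip3, an A20-binding inhibitor of NF-kB signalling, rose from 212, 324 and 249.6 to 277, 459 and 343 CPM in WT and from 131, 150.1 and 109 to 299.7, 364 and 426 CPM in KO cells. Untreated KO libraries lay below untreated WT libraries, and treated ones overlapped (interaction 1.03 log2, SE 0.18, edgeR adjusted p = 0.0272).

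Genes of surface proteins, or of proteins that act on them, were called in both directions. March1 (ENSMUSG00000036469, mm10 chr8:65617900-66471637, plus strand) encodes the ubiquitin ligase that removes MHC class II and CD86 from the DC surface, and its loss lets both accumulate when DCs mature. In WT it fell from 7.13, 8.20 and 4.54 to 2.97, 5.64 and 1.85 CPM, and in KO it rose from 23.9, 33.3 and 54.6 to 33.3, 49.3 and 88.3 CPM, with every pair of a genotype moving the same way (interaction 1.56 log2, SE 0.22, edgeR adjusted p = 0.00638). Vsir, the gene of the checkpoint protein VISTA, rose in WT from 40.02, 26.3 and 34.5 to 75.9, 64.2 and 55.2 CPM and went from 74.1, 112 and 169 to 77, 95 and 93.8 CPM in KO cells, where it did not pass (interaction -1.30 log2, SE 0.22, edgeR adjusted p = 0.0339). Cd300lf, a lipid-binding receptor of myeloid cells, was at 7.39 ± 1.96 and 7.98 ± 1.84 CPM in WT (mean ± SD, n = 3 here and below) and fell from 71.2 ± 32.6 to 34.8 ± 11 CPM in KO (interaction -1.10 log2, SE 0.20, edgeR adjusted p = 0.0302). Limma-voom did not call Cd300lf (adjusted p = 0.0580).

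Igsf8, which pairs with tetraspanins, rose 2.89-fold in WT and 1.31-fold in KO cells, ending at 45.4 ± 18.5 and 61.6 ± 15.7 CPM (interaction -1.14 log2, SE 0.19, edgeR adjusted p = 0.0176). Sema6d, a semaphorin, rose from 18.6 ± 2.07 to 58.4 ± 16.8 CPM in WT and from 20.9 ± 3.34 to 32.5 ± 8.17 CPM in KO cells (interaction -0.999 log2, SE 0.18, edgeR adjusted p = 0.0298). Untreated levels of Sema6d overlapped between the genotypes, and all treated KO libraries lay below all treated WT libraries. Lrp4, a receptor of the LDL receptor family, went from 3.03, 3.13 and 3.12 to 3.46, 2.56 and 3.60 CPM in WT, which did not pass, and rose from 3.73, 5.12 and 8.49 to 10.7, 17 and 38.4 CPM in KO cells (interaction 1.79 log2, SE 0.29, edgeR adjusted p = 0.0159). Rassf5, a partner of Rap1 in leukocyte adhesion, fell 2.47-fold in KO from 81.3 ± 16.7 to 32.7 ± 3.59 CPM, and its WT response of -0.24 log2 did not pass (interaction -1.06 log2, SE 0.18, edgeR adjusted p = 0.0177).

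Several enzymes of sugar and phosphate chemistry were called. Minpp1 (ENSMUSG00000024896, mm10 chr19:32485769-32515370, plus strand), a phosphatase of inositol polyphosphates, was at 13.2, 12.5 and 12.3 CPM in untreated and 9.96, 8.72 and 12.4 CPM in treated WT libraries. It rose in KO from 16.4, 20.3 and 24.9 to 32.7, 67.3 and 92.2 CPM, 2.93-fold (interaction 1.84 log2, SE 0.24, edgeR adjusted p = 0.00381). Chst7, which sulfates chondroitin, fell 2.38-fold in WT from 4.58, 9.02 and 10.7 to 2.19, 4.47 and 3.46 CPM. It rose 1.67-fold in KO from 5.63, 11.4 and 13.8 to 9.29, 13.6 and 31.8 CPM (interaction 1.99 log2, SE 0.30, edgeR adjusted p = 0.0109). Ndst1, which starts the sulfation of heparan sulfate, moved the opposite way, with a KO fall from 46.4 ± 23.7 to 22.4 ± 5.11 CPM and WT means of 8.29 ± 3.01 and 11.2 ± 4.04 CPM (interaction -1.39 log2, SE 0.22, edgeR adjusted p = 0.0159).

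The remaining called genes were of mixed or unknown function. Kctd12, known in the brain as an auxiliary subunit of GABA-B receptors, fell 1.51-fold in WT and rose 1.62-fold in KO cells (interaction 1.30 log2, SE 0.20, edgeR adjusted p = 0.0151). The predicted gene Gm6377 rose from 59.9 ± 7.07 to 79.7 ± 21 CPM in WT and from 67.3 ± 9.15 to 209 ± 73.9 CPM in KO cells (interaction 1.21 log2, SE 0.17, edgeR adjusted p = 0.00879). The gene 6430548M08Rik fell 2.14-fold in WT, to 13.8 ± 1.27 CPM, and 5.74-fold in KO, to 19.5 ± 6.96 CPM, from a KO level of 119.8 ± 67.6 CPM (interaction -1.43 log2, SE 0.18, edgeR adjusted p = 0.00381). Prag1, a pseudokinase of cytoskeletal signalling, rose 5.26-fold in WT and 2.17-fold in KO cells (interaction -1.28 log2, SE 0.23, edgeR adjusted p = 0.0272), and limma-voom did not call it (adjusted p = 0.110). Tmem104 (interaction -1.36 log2, SE 0.25, edgeR adjusted p = 0.0339), the adhesion gene Tns1 (interaction -1.31 log2, SE 0.25, edgeR adjusted p = 0.0372) and Mtus1 (interaction -2.53 log2, SE 0.49, edgeR adjusted p = 0.0486) fell in KO by 1.38, 1.03 and 1.42 on the log2 scale and did not pass in WT. WT levels of Mtus1 were low, at 0.661 ± 0.258 CPM from 37 counts untreated, and limma-voom did not call it (adjusted p = 0.104). The strand setting of the counting is not given in the sources used here, so reads of overlapping or antisense genes cannot be told apart from these.

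The genotype differences within each treatment share their libraries with the interaction and are given beside it as a description (edgeR without the pairing, in which 12.96% of tested genes differed untreated and 14.1% with bacteria). In Prdm1, Procr and Tnip3, KO minus WT was -0.92, -1.45 and -1.01 log2 untreated (adjusted p = 0.00369, 0.0106 and 0.00875) and 0.09, -0.13 and 0.01 log2 with bacteria (adjusted p = 0.764, 0.828 and 0.976). In Spic and Egr1 it was 0.39 and -0.14 log2 untreated (adjusted p = 0.552 and 0.841) and 2.04 and 1.504 log2 with bacteria (adjusted p = 0.00486 and 0.0109). In Htra1 it was 5.44 log2 untreated (adjusted p = 0.000134) and 3.23 log2 with bacteria (adjusted p = 0.000665). In Il27 it was 3.02 log2 untreated (adjusted p = 0.000624) and 0.08 log2 with bacteria (adjusted p = 0.848). For Prdm1, Procr, Tnip3 and Il27 the genotypes differed before bacteria and did not pass after, and for Spic and Egr1 the difference passed with bacteria and did not pass untreated.

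Promoters of Prdm1, Procr and Tnip3 are printed because these genes started lower in KO cells and ended at overlapping levels. The windows run from 250 bases before to 50 after the start given by RefSeq (GRCm38.p6), written along the gene's strand, with capitals marking the AP-1 letters TGANTCA in Prdm1 and Procr and an NF-kB match in Tnip3.
Prdm1 chr10:44458699-44458998 minus strand: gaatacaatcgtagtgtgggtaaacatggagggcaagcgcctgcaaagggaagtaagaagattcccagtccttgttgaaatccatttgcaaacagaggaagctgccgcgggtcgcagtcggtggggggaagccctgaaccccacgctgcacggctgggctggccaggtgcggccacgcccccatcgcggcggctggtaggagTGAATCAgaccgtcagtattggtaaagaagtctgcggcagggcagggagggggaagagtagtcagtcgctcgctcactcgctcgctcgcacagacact
Procr chr2:155750967-155751266 plus strand: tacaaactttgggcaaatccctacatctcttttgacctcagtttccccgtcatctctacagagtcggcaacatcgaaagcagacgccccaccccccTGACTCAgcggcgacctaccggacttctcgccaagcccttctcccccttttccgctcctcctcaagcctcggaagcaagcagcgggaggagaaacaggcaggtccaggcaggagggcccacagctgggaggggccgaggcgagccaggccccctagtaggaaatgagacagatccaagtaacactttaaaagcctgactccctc
Tnip3 chr6:65590148-65590447 plus strand: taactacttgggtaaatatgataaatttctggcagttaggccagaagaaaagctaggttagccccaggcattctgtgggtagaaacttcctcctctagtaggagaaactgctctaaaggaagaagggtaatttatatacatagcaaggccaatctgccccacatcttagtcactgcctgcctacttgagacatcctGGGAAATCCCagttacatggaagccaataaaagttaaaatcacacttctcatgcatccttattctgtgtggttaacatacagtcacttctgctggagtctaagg
Of the 41 called genes, 27 had such a window, as did 10009 tested genes. The AP-1 letters TGANTCA were found on either strand in 3 of the 27 (F11r, Prdm1 and Procr; 11.1%), against 6.26% of the 10009. An NF-kB match was found in 3 (6430548M08Rik, Jdp2 and Tnip3; 11.1%), against 12.1%. The E-box letters CACGTG were in 2 (7.41%), against 11.7%. The interferon element ISRE and the lysosomal element CLEAR, which contains the E-box, were in 0 of the 27 and in 4.06% and 0.819% of the 10009. A match describes letters in these windows, and binding was not measured.

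Lists of DC activation are given beside the called genes. An unadjusted p of the interaction under 0.05 was found in 4.32% of all tested genes with a higher and 4.90% with a lower KO response. All 45 interferon genes rose in each genotype, against 16.6% of all tested genes. The median paired response of these genes was 3.35, 3.24 and 4.08 log2 in WT pairs 1, 2 and 3 and 3.55, 3.90 and 4.49 log2 in KO pairs, which overlap. The interaction was positive in 40 and negative in 5 of them, with a median of 0.49 log2, and 7 had an unadjusted p under 0.05, all with a higher KO response. Of the 45 interferon genes and 18 chemokines 0 were called by edgeR, which at the share of 0.287% among all tested genes says nothing about lists of this size. Mx2 (1.36 log2, edgeR adjusted p = 0.278), an antiviral GTPase, and Ifih1 (0.92 log2, edgeR adjusted p = 0.372), a sensor of double-stranded RNA, had the lowest p of the list.

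Of 18 chemokines, 12 rose in each genotype. They had a median interaction of 0.76 log2, 14 positive and 4 negative, with 6 at an unadjusted p under 0.05 above and 1 below. Their median paired responses were 1.83, 2.11 and 1.46 log2 in WT and 1.71, 2.32 and 2.06 log2 in KO pairs, which overlap. Without number 1 of both genotypes the median interaction was 1.27 log2. The neutrophil attractant Cxcl2 came closest to a call (1.57 log2, edgeR adjusted p = 0.0562). Of 24 tested costimulation and maturation genes 0 were called, which at the share of 0.287% among all tested genes says nothing about a list of this size. In this list 7 genes had an unadjusted p under 0.05, all higher in KO, and the median interaction was 0.29 log2. Cd40 (0.61 log2, edgeR adjusted p = 0.247), the receptor for T cell help, and the T cell ligand Cd86 (0.46 log2, edgeR adjusted p = 0.465) were among the 7. Of 23 inflammatory cytokine genes, 15 had a positive interaction, the median was 0.27 log2, and Il27 was the call.

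**Figure D5:**
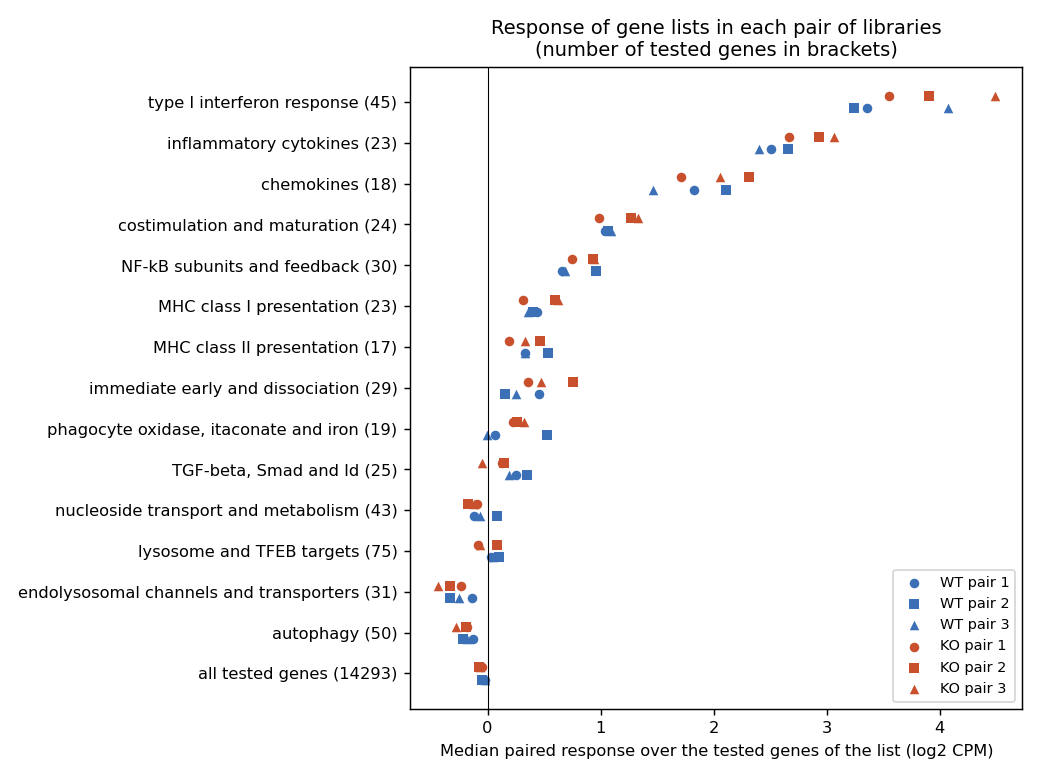
Median paired response (log2 CPM, treated minus untreated) over the tested genes of 14 lists and of all tested genes, with WT pairs in blue, KO pairs in red and the number given by the symbol. The lists of DC activation lie far to the right in both genotypes, and the WT and KO symbols overlap in the interferon and chemokine rows.

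Lists closer to the known site of ENT3 held genes of both signs. Of all 14293 tested genes, 7557 had a negative interaction, 9.23% had an unadjusted p under 0.05 and 0.287% were called. At that share of calls, 0 calls say nothing about lists of these sizes. Of 50 autophagy genes 0 were called, 1 had an unadjusted p under 0.05 above and 3 below, and the median interaction was -0.04 log2. Their median paired responses were -0.13, -0.22 and -0.18 log2 in WT and -0.18, -0.19 and -0.28 log2 in KO pairs. Of 75 lysosome genes and TFEB targets, 54 had a negative interaction and 21 a positive one, with a median of -0.10 log2, 2 at an unadjusted p under 0.05 above and 7 below, and Acp5 (-0.82 log2) was the call. The proton pump subunit gene Atp6v0a1 had the next lowest p in that list (0.79 log2, edgeR adjusted p = 0.0845). Endolysosomal channels and transporters (31 tested, median -0.09 log2) and nucleoside transport and metabolism (43 tested, median -0.06 log2) had 0 calls by edgeR. An unadjusted p under 0.05 was found in 1 of the 31 above and 2 below, and in 3 of the 43 above and 7 below. The antigen presentation lists, of 17 class II and 23 class I genes, had 0 calls and medians of -0.01 and 0.18 log2, with 2 and 1 genes at an unadjusted p under 0.05.

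Immediate early genes, 29 tested, had a median interaction of 0.22 log2, with Egr1 as the call. Of these genes 9 were at an unadjusted p under 0.05 with a higher KO response and 1 with a lower one. Fosl1 (1.57 log2, edgeR adjusted p = 0.0559) and Atf3 (0.89 log2, edgeR adjusted p = 0.0635), both partners in AP-1 type dimers, were next. This list also holds genes that cell isolation itself can induce. Of 25 genes of TGF-beta, Smad and Id, 16 had a negative interaction and the median was -0.28 log2. An unadjusted p under 0.05 was found in 3 of them with a higher and 7 with a lower KO response. The median paired responses of this list were 0.26, 0.35 and 0.19 log2 in WT and 0.13, 0.15 and -0.05 log2 in KO pairs. Id3 was its call, with a positive interaction, and its relative Id1 had a negative one (-1.21 log2, edgeR adjusted p = 0.0815). The list of phagocyte oxidase, itaconate and iron, 19 tested, had a median of 0.23 log2 with Slc40a1 and Hmox1 called above and Lcn2 below. Of these 19 genes, 8 rose and 3 fell in WT, and 8 rose and 1 fell in KO cells. NF-kB subunits and feedback, 30 tested, had a median of 0.15 log2 with Tnip3 as the call.

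The other lists had 0 calls by edgeR, which at the share of 0.287% among all tested genes says nothing about lists of their size. Their median interactions were -0.04 log2 for Toll-like receptors and adaptors, -0.04 for inflammasome and pyroptosis, -0.00 for ER stress, 0.11 for glycolysis and hypoxia, -0.06 for cholesterol and fatty acid synthesis, -0.02 for cell cycle, and 0.06 for ribosomal proteins. All 12 tested mitochondrially encoded genes had a negative interaction, with a median of -0.16 log2 and 0 at an unadjusted p under 0.05. In the other 7 lists the genes at an unadjusted p under 0.05 numbered 10 for Toll-like receptors, 6 for inflammasome, 7 for ER stress, 7 for glycolysis, 0 for cholesterol synthesis, 5 for cell cycle and 3 for ribosomal proteins.

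Single genes chosen for their place in the pathway were not called, and their intervals show what differences the data allow. Tnf rose 15-fold in WT and 15.3-fold in KO cells, from 38.6 ± 2.88 to 594 ± 172 CPM and from 42.6 ± 10.6 to 651 ± 145 CPM. Its interaction was 0.03 log2, with a 95% interval of -0.40 to 0.46. Il1b (0.27 log2, -0.25 to 0.78), Il12b (-0.45 log2, -1.46 to 0.57) and Myd88, the adaptor of most Toll-like receptors (0.05 log2, -0.33 to 0.43), also had intervals that include 0. Il6 had an interval above 0 (0.85 log2, 0.19 to 1.51), but after adjustment over all genes it did not pass (edgeR adjusted p = 0.371). Tlr4, the receptor for lipopolysaccharide, fell 4.16-fold in WT and 2.65-fold in KO cells (0.65 log2, 0.05 to 1.26, edgeR adjusted p = 0.495). Cxcl10, a chemokine for activated T cells, reached 971 ± 159.8 CPM in WT cells, and 1668 ± 739.8 CPM was its KO level (1.05 log2, -0.47 to 2.57).

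Ifnb1, the gene of interferon beta, had 0 counts in the untreated WT libraries and 7 in the untreated KO libraries, so no difference of folds is given. Treated WT libraries were at 4.24, 7.44 and 2.75 CPM and treated KO libraries at 8.75, 9.05 and 12.8 CPM, all KO libraries above all WT libraries, a difference of 1.09 log2 that did not pass (edgeR without the pairing, adjusted p = 0.241). Mcoln1, the gene of the lysosomal cation channel TRPML1, was at 33.8 ± 0.401 and 28.3 ± 3.48 CPM in WT and at 32.2 ± 1.13 and 25.5 ± 2.95 CPM in KO cells, an interaction of -0.09 log2 with an interval of -0.44 to 0.27. Tfeb, the master regulator of lysosomal genes, fell from 95.8 ± 7.26 to 71.7 ± 4.61 CPM in WT and from 91.1 ± 13.4 to 44.7 ± 13.4 CPM in KO (-0.63 log2, -1.09 to -0.18, edgeR adjusted p = 0.333). Its relative Tfe3 (0.04 log2, -0.23 to 0.31), the autophagosome gene Map1lc3b (-0.07 log2, -0.33 to 0.20), the autophagy receptor gene Sqstm1 (0.12 log2, -0.17 to 0.41) and Slc15a4, the gene of a lysosomal histidine transporter (-0.32 log2, -0.66 to 0.02), had intervals that include 0.

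The genes just past the threshold were Sod2 and S100a8. Sod2, a mitochondrial superoxide dismutase, went from 52.8, 67 and 59.4 to 51.9, 52.7 and 59.2 CPM in WT and from 75.7, 76.1 and 78.4 to 97.5, 162 and 151 CPM in KO cells (0.93 log2, SE 0.18, edgeR adjusted p = 0.0502). S100a8, a neutrophil and monocyte alarmin and one of the neutrophil markers, went from 2.55, 2.51 and 3.06 to 1.98, 1.98 and 1.99 CPM in WT and from 32.8, 160.3 and 13.6 to 55.2, 209.8 and 22.8 CPM in KO cells (1.07 log2, SE 0.21, edgeR adjusted p = 0.0502). The last gene inside it was Mtus1 (edgeR adjusted p = 0.0486).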

How the data were processed

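Random hexamers primed the libraries, made from total RNA of 12 samples and read from both ends, per the labels' protocols. The authors deposited raw counts per gene for mm10, and the submitters' processing notes name CASAVA 1.8 and HISAT2. Not given in the sources used here are the counting tool, whether it used strand, and the annotation. Coordinates are those of the deposited table, in which 203 genes share a symbol with another.

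From the counts, edgeR 4.0.16 in R 4.3.3 kept 14293 genes by filterByExpr (at least 99.87% of each library's counts), scaled with TMM factors and fitted a robust quasi-likelihood model with 6 pairs of one genotype and number and a treatment term per genotype (4 residual degrees of freedom). Benjamini-Hochberg adjustment ran over all tested genes, with a threshold of 0.05. The fit was tested on simulated data with known interactions in genes above a floor of counts. It called 4% of simulated interactions of 0.5 log2, 58% of those of 1 log2, 82% at 1.5 log2 and 88% at 2 log2, with 50 genes at each size. Of its 125 calls, 9 (7.2%) fell on genes with no simulated interaction. The simulated counts were drawn from the paired fit itself, with the pairing taken as true, so these rates need not hold for the data. CPM values use the TMM factors, and paired responses a prior count of 2. Genotype differences came from a fit without pairs.

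The labels do not say what the numbers mark. Deviations from group means correlated with r from 0.226 to 0.530 in the 6 same-number pairs of a genotype and from -0.430 to 0.0468 in the 12 other pairings, so the numbers were taken as pairs, a pairing that comes from the data. The members and the 23 gene lists (882 symbols with the 14 marker lists, 879 found, 826 tested) were chosen with earlier results of these data known. Named genes were a fixed set of 15 genes, the 12 widest calls per direction among protein-coding genes with at least 5 CPM in a group and no overlap of paired responses, and up to 4 calls per list. Outside this rule, Gm6377, F11r, Prdm1, Jdp2, Blvrb, Adgre1, Rassf5, Ets2, Sema6d, Cd300lf, Arid5a and Sik1, the list genes beside the calls, Sod2 and S100a8 were named after their values were seen. Of the 41 called genes, 1 is not reported here. Alternatives were other scalings, filters and blocks, DESeq2 1.42.0, limma-voom 3.58.1 and each pair or library left out. Figures were drawn with matplotlib 3.10.9 in Python 3.11.15.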

Additional observations from a re-analysis of the deposited data

Results flagged for a closer look

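The KO response to bacteria differed from the WT response by the test of the difference itself in 41 genes (edgeR with the pairing, adjusted p under 0.05). The KO response lay above the WT response in Chst7 (1.99), Cebpd (1.86), Minpp1 (1.84), Lrp4 (1.79), Egr1 (1.61), Spic (1.56), March1 (1.56), Id3 (1.31), Kctd12 (1.30), Slc40a1 (1.26), Procr (1.23), Jade3 (1.23), Arid5a (1.21), Gm6377 (1.21), Tnip3 (1.03), Prdm1 (0.99), Jdp2 (0.97), Blvrb (0.94), Ets2 (0.90), Pparg (0.89) and Hmox1 (0.85), all as interaction in log2. It lay below in Il27 (-2.93), Mtus1 (-2.53), Htra1 (-2.23), Lcn2 (-1.73), 6430548M08Rik (-1.43), Ndst1 (-1.39), Tmem104 (-1.36), Tns1 (-1.31), Vsir (-1.30), Prag1 (-1.28), Igsf8 (-1.14), Cd300lf (-1.10), Abcg1 (-1.10), Rassf5 (-1.06), Sik1 (-1.05), Adgre1 (-0.999), Sema6d (-0.999), F11r (-0.93) and Acp5 (-0.82). For each of these genes all 3 KO paired responses lay on one side of the 3 WT ones, as they did in 14.7% of all tested genes. The call was made from the same libraries, so this separation is no further support.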

How the results depend on the processing

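All 41 called genes kept their direction under all 19 alternatives, and 34 were called by edgeR, DESeq2 and limma-voom alike. With each of the 6 pairs left out in turn, 10 of the 41 were called in all 6 fits and 15 in at least 4, so most calls did not pass in every fit. A fit with fewer pairs also has fewer residual degrees of freedom, so a lost call need not rest on the pair left out. Without the replicate block, or with a replicate block shared by the genotypes, 0 genes were called in the interaction (608 and 904 at an unadjusted p under 0.05). The responses to bacteria then numbered 2676 genes in WT and 3292 in KO cells without the block. DESeq2 called 126 interactions (82 higher, 44 lower) among the genes to which it gave an adjusted p. The fit with no filter on low counts called 309, the fit with a term for the response of number 1 64, and the fit without replicate 1 of both genotypes 74 (32 of the 41 shared). Scaled by library totals alone, 41 genes were called, 27 higher and 14 lower against 21 and 20, and the medians of the WT and KO responses moved to -0.36 and -0.39 log2. With each pair left out in turn the interaction gave 15 to 228 calls: 15 without KO number 3, 228 without KO number 1, and 26, 21 and 25 without WT numbers 1, 2 and 3. The responses gave 2885 to 4620 in WT and 3057 to 5615 in KO cells. With each library left out, genotype differences gave 863 to 2123 calls untreated and 1028 to 2888 treated. The median interaction without replicate 1 was 1.27 log2 for chemokines and 0.30 log2 for LXR and lipid handling. Other list medians that moved by over 1.5 times were then 0.30 for MHC class I, 0.36 for immediate early genes, 0.12 for ribosomal proteins, -0.36 for mitochondrially encoded genes, -0.17 for endolysosomal channels, -0.08 for Toll-like receptors, -0.08 for inflammasome, -0.03 for MHC class II, -0.02 for autophagy and -0.004 for nucleoside genes, and 2 changed sign, to 0.07 for ER stress and 0.02 for cell cycle. The cause of these shifts was not tested. Low counts in untreated WT libraries limit the folds of Il27 (9 counts), Lcn2 (25), Mtus1 (37) and Ifnb1 (0).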

Other observations

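Some genes had wider interactions than most calls but larger errors, and were picked after their values were seen. Il33, an alarmin cytokine, had 2 counts in untreated WT libraries, and it was at 0.141, 0.291 and 0.474 CPM in the treated ones. KO libraries were at 0, 0.104 and 0.0948 CPM untreated and 4.01, 9.34 and 23.3 CPM treated (edgeR adjusted p of the interaction = 0.407). Nr1d1, a repressor of the circadian clock, went from 0.585, 0.461 and 0.170 to 0.212, 0.814 and 0.758 CPM in WT and from 11.7, 13.3 and 28.5 to 2.64, 4.47 and 7.15 CPM in KO cells (-2.48 log2, SE 0.57, edgeR adjusted p = 0.103). Rhag and Gfi1b are genes of red cell precursors. Rhag had 7 counts in untreated and 0 in treated WT libraries, and 221 and 380 in KO libraries, so no difference of folds is given (edgeR adjusted p = 0.218). Gfi1b had 37 and 9 counts in WT and 357 and 528 in KO libraries, an interaction of 2.83 log2, SE 0.75, edgeR adjusted p = 0.169. The erythroid marker sums differed between the genotypes as given above, and the part of these cells was not tested. None of these 4 genes passed.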
